A study of Arabidopsis thaliana with 18 samples.

Results

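A set of 142 Arabidopsis thaliana genes was chosen by its polysome ratio, defined here as the log2 signal of polysome RNA minus the log2 signal of steady-state RNA. The ratio after 4 h of light had to exceed the ratio in darkness by 0.8 or more on the log2 scale, a gain of 1.74-fold. The mean polysome signal at 4 h and both steady-state means had to reach 200. Probe sets had to name exactly 1 gene, and genes encoded in the plastid, genes of ribosomal proteins and 3 further genes (AT2G26500, AT5G19510 and CHLM) were left out. Of 4674 probe sets, of 4662 genes, that met every condition but the gain, the 142 members made up 3.04%, while 55 of the same 4674 lost 0.8 or more. The dark and 4 h arrays therefore selected the members, and values from those arrays are given as a description without a test. The 0.5 h arrays were not used in the selection and carry the one test on the members. The selection favoured low dark ratios, and a ratio that persists to 0.5 h carries that choice into the test.

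The samples came from 4-day-old etiolated Col-0 seedlings grown on MS agar, of which the aerial parts were taken. Seedlings stayed dark or received white light for 0.5 h or 4 h. From each light condition both steady-state RNA and polysome RNA, the latter recovered through a sucrose gradient, were hybridised to Affymetrix arrays. This gave 6 groups of 3 arrays, 18 in all, whose replicates are labelled biological. All 6 groups share the genotype and the growth in darkness before any light.

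A polysome is an mRNA with several ribosomes on it, so polysome RNA stands for the messages under translation and steady-state RNA for all messages present. Seedlings that reach the light after growth in darkness build photosynthetically active chloroplasts, open their cotyledons and slow the growth of the hypocotyl, a change called de-etiolation. Messages can enter polysomes more readily during this change, and the number of messages available can change as well. The ratio moves where polysome RNA and steady-state RNA change by different amounts, and an equal change of both leaves it as it was.

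Across the series, the deposited signals had a 2% trimmed mean between 500.04 and 500.05 in every array, so that only relative changes are visible. Array medians lay between 153.9 and 205.7. Of 7 markers of green or greening tissue, 4 had a probe set with 1 gene, and PORB, LHCB4.1, LHCB4.2 and RCA had group means between 2623 and 25030. Of 6 root markers, 1 was measured, EXPA7, whose group means lay between 6.40 and 14.9. The other 11 markers on the lists for green tissue, root and seed storage had no such probe set and were not analysed here. In whole aerial parts, fewer cells of a type and less RNA per cell cannot be told apart.

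In darkness the members were low in polysomes relative to other messages. Their median ratio was -0.74 on the log2 scale, against 0.05 over the 4674 probe sets, and 136 of the 142 had a ratio below 0. After 4 h of light their median ratio was 0.39, against -0.01 over the 4674 probe sets, and 28 still had a ratio below 0. The gain ranged from 0.80 to 1.93 with a median of 1.02, and the middle 50% of the members lay between 0.88 and 1.23. The standard error of a gain, from a fit without replicate numbers, had a median of 0.303 on the log2 scale. Computed within replicate numbers, the gain was above 0 in all 3 numbers for each of the 142 members, the lowest value being 0.147, and it reached 0.8 in all 3 for 53. In 96 members all 3 dark polysome signals lay below all 3 dark steady-state signals, an order shown by 12.7% of the 15922 probe sets that were tested across the array and by 15.1% of the 4674. In 63 members all 3 polysome signals at 4 h lay above all 3 steady-state signals, against 13.8% and 19.9%. Both orders were shown by 32 members, against 0.572% and 0.899%. The gain that made the choice is the mean of the gains within the 3 replicate numbers. Shares of the 4674 probe sets with such gains are not given here. These arrays made the choice, so nothing is read from any count in this paragraph.

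The gains came from both sides of the ratio in nearly equal numbers. In 70 members (49.3%) polysome RNA was higher at 4 h than in darkness by 0.5 or more on the log2 scale, with steady-state RNA no lower than 0.5 below its dark level. In 58 members (40.8%) steady-state RNA was lower by 0.5 or more while polysome RNA was less than 0.5 higher. In 11 members both conditions held, and in 3 neither did. Among the 4674 probe sets the shares of the same 4 classes were 19.2%, 23.5%, 0.235% and 57.1%. The selection requires one side or the other to move, so these shares describe the members only.

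In the class with higher polysome RNA the median change was 1.44 in polysome RNA and 0.27 in steady-state RNA. Steady-state RNA was itself higher by 0.5 or more in 27 of these 70 genes, and in the other 43 it stayed within 0.5 of its dark level. In the class with lower steady-state RNA the median change was -1.17 in steady-state RNA and -0.11 in polysome RNA. Polysome RNA was lower too, by 0.5 or more, in 11 of these 58 genes, and stayed within 0.5 in 47. The 11 members of the combined class had median changes of 0.71 and -0.63 in polysome and steady-state RNA.

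**Figure D1:**
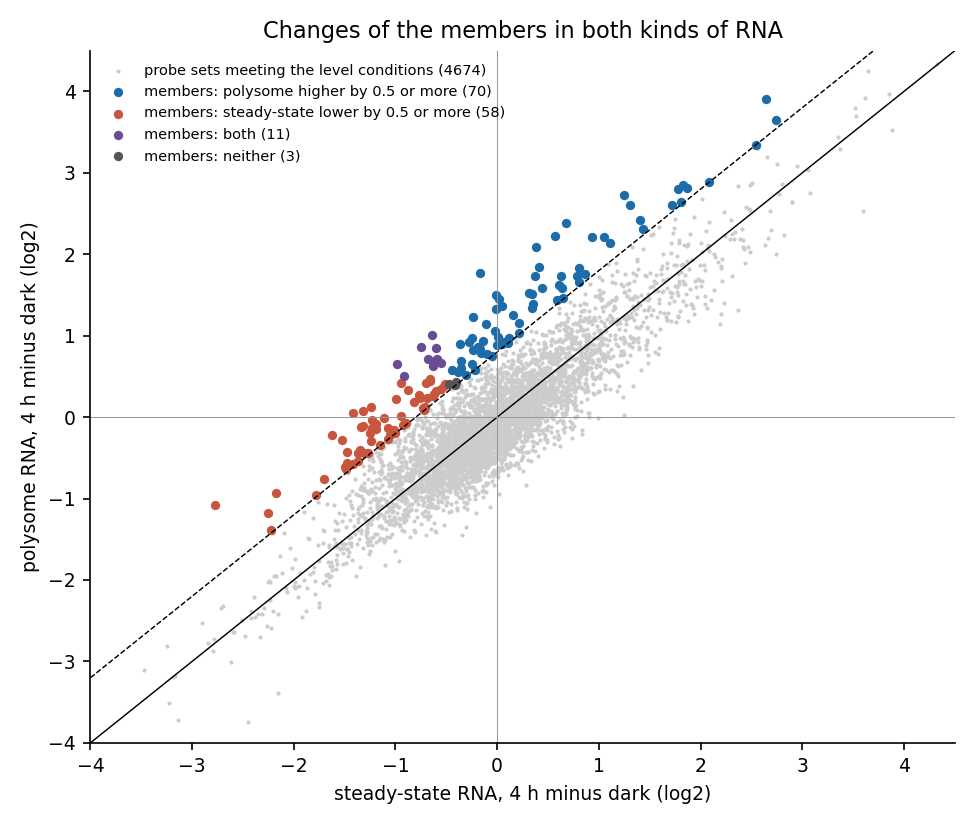
Change from darkness to 4 h of light in steady-state RNA (horizontal, log2) and polysome RNA (vertical, log2) for each of 4674 probe sets, grey, and the 142 members, coloured by the class of their gain. The solid line marks equal changes and the dashed line a gain of 0.8, so all members lie on or above it, 70 of them with polysome RNA higher by 0.5 or more and 58 with steady-state RNA lower by 0.5 or more.

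By limma's test on all probe sets, 15.6% of the 15922 tested were called higher in polysome RNA at 4 h and 20.1% lower, and the members counted 79 higher and 11 lower. In steady-state RNA 16.9% of all tested were called higher at 4 h and 17.1% lower, and the members counted 23 higher and 66 lower. The change of ratio itself was called higher in 0.333% of all tested and in 24 members. With the replicate number as a block these became 1.39% and 90 members, and with 1 array left out at a time the members called numbered 2 to 24, fewest without dark steady-state replicate 3. Of the members, 43 were called higher in polysome RNA with no call in steady-state RNA, and 42 lower in steady-state RNA with no call in polysome RNA. A further 23 were higher in both, 11 lower in both and 13 higher in polysome with lower steady-state RNA. For 10 members neither was called. Shares of all probe sets in these combinations were not computed. The rule chose the members on these contrasts, so nothing is read from any count in this paragraph.

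In 10 of the 12 members of largest gain no dark polysome signal reached a dark steady-state signal. This order was shown by 12.7% of the 15922 probe sets tested and by 15.1% of the 4674. The gain that ranked the 12 contains the dark ratio, so nothing is read from this count. AT3G50790, of the esterase/lipase family, had the largest gain. Its dark steady-state signals were 384, 290.4 and 229 and its dark polysome signals 179, 126 and 70.1. After 4 h the steady-state signals were 322, 266 and 211 and the polysome signals 448, 317 and 440.5. All dark polysome values were below all dark steady-state values, the 4 h values overlapped, and the gain of 1.93 ± 0.516 (SE, 3 arrays a group) came from polysome RNA, which was higher by 1.77.

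AT2G29180 combined a low dark ratio with higher RNA of both kinds at 4 h. Its dark signals were 763, 1016 and 927 in steady-state RNA and 309, 432 and 325 in polysome RNA. At 4 h they were 1200.5, 1608 and 1512 in steady-state RNA and 1666, 1904 and 1966 in polysome RNA. Polysome values were the lower ones in darkness and the higher ones at 4 h, with no overlap at either time, and the gain was 1.72 ± 0.305 (SE). AT1G53120, an RNA-binding protein with an S4 domain, had dark signals of 298, 274 and 258 in steady-state RNA and 93.3, 148 and 158 in polysome RNA. At 4 h its steady-state signals were 288, 345 and 470.4 and its polysome signals 498, 562 and 596. The order again reversed without overlap, and polysome RNA was higher by 2.08 and steady-state RNA by 0.38.

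AT1G73120 showed the lowest change of steady-state RNA among the members, -2.77 ± 0.23 (SE). Its steady-state signals were 10235, 15096 and 15310.3 in darkness and 1612, 2129 and 2155 at 4 h. Its polysome signals were 9442, 6950.5 and 8062 in darkness and 3828, 3564 and 4079 at 4 h. Both kinds of RNA were lower at 4 h without overlap, steady-state RNA by far more, and the gain of 1.69 came with less polysome RNA than in darkness.

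STOMAGEN encodes a secreted peptide that promotes stomatal development. Its dark signals were 748, 1376 and 1146 in steady-state RNA and 348, 619 and 655 in polysome RNA. At 4 h they were 1146, 1993 and 1676 in steady-state RNA and 1907, 2707 and 2780.3 in polysome RNA. Replicate 1 was the lowest array of each of these 4 groups, the dark groups did not overlap and the 4 h groups did, and the gain was 1.66 ± 0.429 (SE).

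AT4G38490, AT5G05710 and LSM3B gained on both sides. AT4G38490 had dark signals of 446, 814 and 808 in steady-state RNA and 274, 411 and 306 in polysome RNA, and 4 h signals of 382, 438 and 465 in steady-state RNA and 624, 704 and 640.5 in polysome RNA. AT5G05710 had dark signals of 949.8, 1382 and 1213 in steady-state RNA and 571, 623 and 577 in polysome RNA, and 4 h signals of 514, 615 and 654 and of 858, 1033 and 889. In both genes all polysome values were the lower ones in darkness and the higher ones at 4 h. LSM3B is a Sm-like protein of the rings that act in mRNA splicing and decay. Its dark signals were 995, 799 and 864 in steady-state RNA and 418, 305 and 262 in polysome RNA, and its 4 h signals were 555, 518 and 503 and 709.5, 619 and 459.7. The dark groups were apart and the 4 h groups overlapped, since polysome replicate 3 was below all steady-state values. The gains of the 3 genes were 1.65, 1.63 and 1.61.

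AT3G47295 differed at 4 h only in polysome RNA. Its steady-state signals were 1038, 661 and 827 in darkness and 1053, 693 and 754 at 4 h. Its polysome signals were 453, 285 and 329 in darkness and 968, 1009 and 991 at 4 h. The 4 h polysome values were all above all dark polysome values, and the steady-state change was -0.01. AT1G72030, a GNAT-type acetyltransferase of chloroplasts, was higher in both kinds of RNA. Its steady-state signals were 423, 939.8 and 994 in darkness and 1402, 1938 and 1936 at 4 h, and its polysome signals 237, 456 and 385 in darkness and 1923, 2544 and 2500.2 at 4 h. Polysome and steady-state values overlapped in darkness and at 4 h, with replicate 1 the lowest of each of these groups, and the gain was 1.49 ± 0.439 (SE).

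AT2G36930, a zinc-finger protein, held its polysome signal while its steady-state signal was lower. The polysome signals were 1378, 1300.2 and 1099.5 in darkness and 1274, 1305 and 1317 at 4 h. The steady-state signals were 2267, 2800.2 and 2422 in darkness and 779, 1149 and 893 at 4 h. Polysome values crossed from below to above all steady-state values, with changes of 0.05 in polysome RNA and -1.42 in steady-state RNA. AT1G07440, a Rossmann-fold oxidoreductase, had a gain of 1.47 ± 1.12 (SE), the largest standard error of gain among the members in the fit without replicate numbers. Its dark signals were 238, 1525 and 1557 in steady-state RNA and 83.8, 456 and 480.4 in polysome RNA, and its 4 h signals were 477, 861 and 838 and 438, 674 and 795. Replicate 1 was far below the others in each dark group, and the groups overlapped at both times. Within replicate numbers 1, 2 and 3 the gains were 1.39, 1.39 and 1.62, so the gain was as large within the other two numbers as within the low one.

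**Figure D2:**
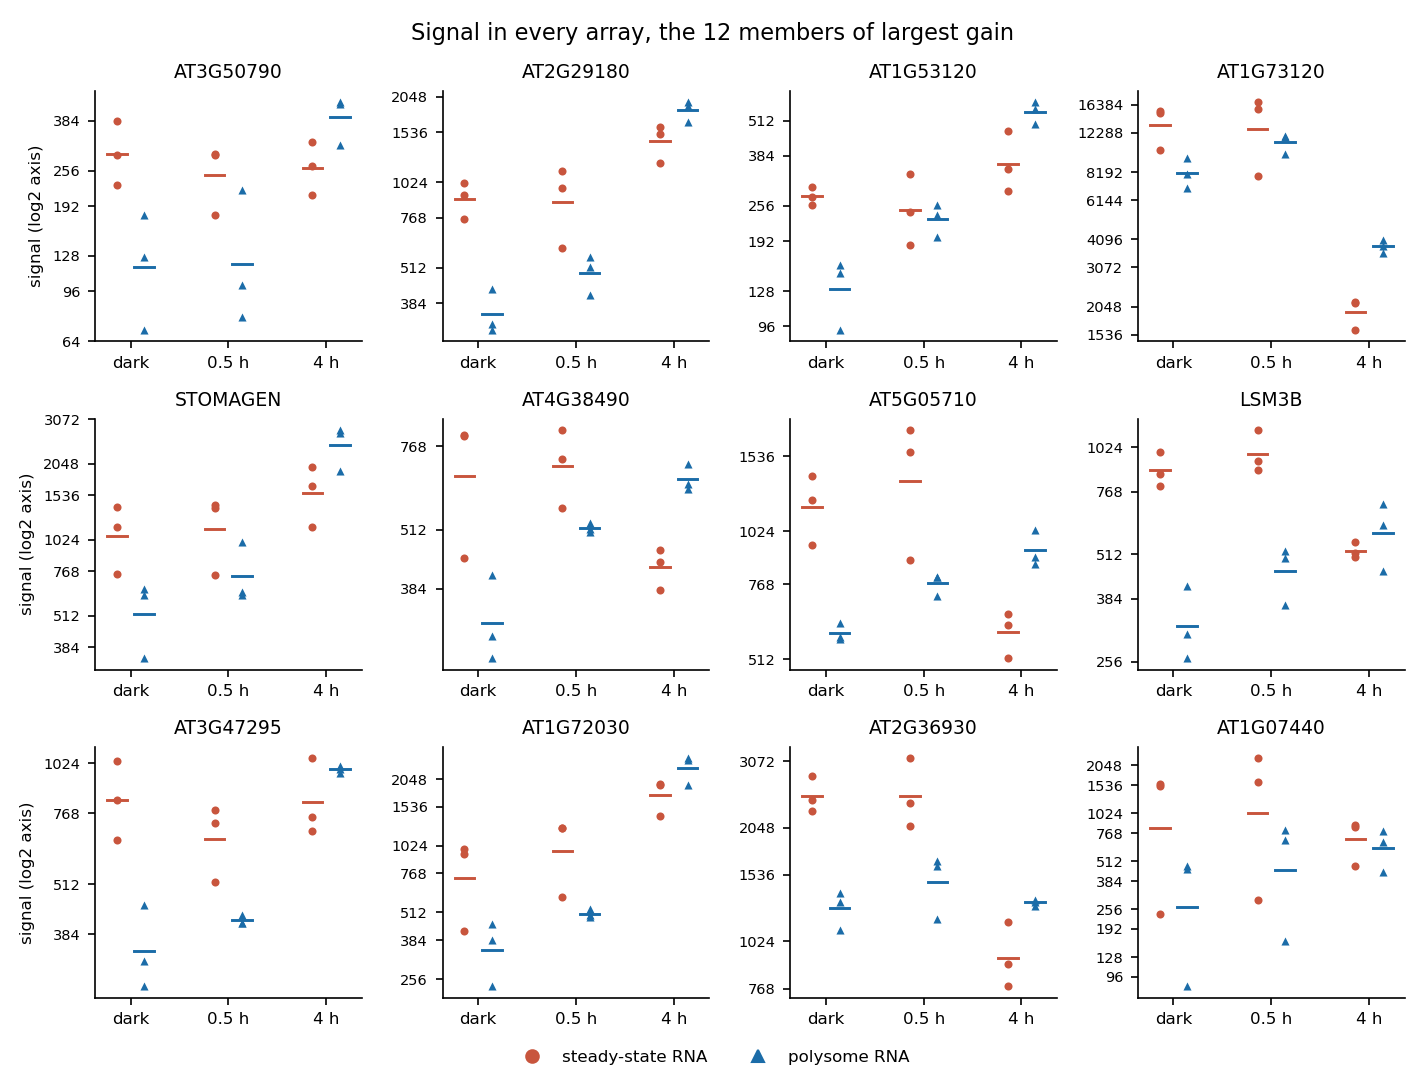
Signal in every array (vertical, log2 axis, arbitrary units) in darkness, 0.5 h and 4 h of light for the 12 members of largest gain, circles for steady-state RNA, triangles for polysome RNA and bars for geometric means of 3 arrays. The mean of the triangles lies below that of the circles in darkness in all 12 and above it at 4 h in all but AT1G07440, through higher polysome signal in AT2G29180 and through lower steady-state signal in AT1G73120 and AT2G36930.

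At the threshold, AT4G16410, AT2G04039 and AT4G29480 were just inside with gains of 0.804, 0.803 and 0.801. AT4G05460, AT5G13770 and AT5G22875 were just outside with 0.799, 0.797 and 0.797. These differences are far smaller than the standard errors, which lay between 0.231 and 0.348 for these 6 genes.

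Roles were assigned to 58 members from general knowledge and are given for those below. The counts by role cover these 58 only, and other members may share a role. Of 8 members for photosynthesis and chlorophyll, 7 had higher polysome RNA and 1 lower steady-state RNA. AT2G04039, the NdhV subunit of the chloroplast NDH complex, was higher by 3.34 in polysome RNA and by 2.54 in steady-state RNA. AT5G52780, a PAM68-like thylakoid protein, was higher by 2.80 and 1.78. AT5G38520, the chlorophyll dephytylase CLD1, was higher by 2.61 and 1.72, so in these 3 genes the gain lay on top of a larger change shared by both kinds of RNA. AT4G01150, which bends thylakoid membranes at the grana margins, was higher by 1.62 and 0.61 in polysome and steady-state RNA, with the smallest standard error of gain in the group, 0.182. LHCB4.2, a minor antenna protein of photosystem II, was higher by 1.46 and 0.65. LPA19, a Psb27 homologue that assists photosystem II assembly, was higher by 1.53 in polysome RNA and 0.32 in steady-state RNA, and CYTC6A, the cytochrome c6A of the thylakoid lumen, by 0.75 in polysome RNA with -0.05 in steady-state RNA. The exception was LIL3:2, a light-harvesting-like protein that stabilises enzymes of chlorophyll synthesis, with changes of -0.58 in polysome RNA and -1.42 in steady-state RNA.

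Of 7 other chloroplast proteins, 5 had higher polysome RNA and 2 were in the combined class. AT2G42220, a rhodanese-like protein, had the largest polysome change of all members, 3.91, beside 2.64 in steady-state RNA. AT1G73530, an RRM protein of organelle RNA editing, was higher by 1.73 and 0.79. AT3G60210, a chaperonin 10-like protein, and AT4G19830, an FKBP-type immunophilin, were higher by 0.92 and 0.60 in polysome RNA, with -0.28 and -0.35 in steady-state RNA. AT2G39000, a second GNAT-type acetyltransferase, and ATOEP16-4, an outer envelope protein, had polysome changes of 0.68 and 0.72 and steady-state changes of -0.63 and -0.59. With AT1G72030, described above, no gene of these 7 had lower polysome RNA.

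The members that act on RNA numbered 9, with 5 of higher polysome RNA, 2 of lower steady-state RNA and 2 combined. AT1G53120 and LSM3B had the largest gains. AT4G21110, a G10-type splicing protein, followed with 1.39, made of 0.72 in polysome RNA and -0.68 in steady-state RNA. AT2G26970, an oligoribonuclease, had higher polysome RNA by 1.51, and AT4G12600, an L7Ae-type RNA-binding protein, by 1.44. AT3G56680, an R3H-domain protein, and AT5G04600, an RRM protein, were higher by 0.83 and 0.91. Steady-state RNA was lower for AT5G46840, another RRM protein, at -1.23, and for AT1G15920, a deadenylase of the CCR4-NOT complex, at -0.60.

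Translation and protein biogenesis counted 6 members, 3 in each of the main classes. AT1G73230, the beta subunit of the nascent polypeptide-associated complex, was higher by 1.25 in polysome RNA. AT1G25260, of the ribosomal protein L10 family but not counted as a ribosome subunit, and AT5G16140, of the peptidyl-tRNA hydrolase family, were higher by 1.14 and 1.04. AT4G27130, the initiation factor eIF1, had changes of 0.18 in polysome RNA and -0.82 in steady-state RNA. AT5G13780, the catalytic subunit of N-terminal acetyltransferase A, and AT1G48160, a protein of the signal recognition particle, had lower steady-state RNA at -0.66 and -0.71.

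In the ubiquitin and zinc-finger group 7 of 8 were in the class with lower steady-state RNA, which held 40.8% of all members. The role groups hold members only, and a difference between them was not tested. The RING protein AT4G26400 had a change of -2.18 in steady-state RNA and -0.93 in polysome RNA. The other RING proteins, AT3G19910, AT1G55530, AT1G19680 and AT2G45530, lay between -1.31 and -0.76 in steady-state RNA and between -0.44 and 0.23 in polysome RNA. The F-box protein AT3G23880 had -1.48 and -0.43 in steady-state and polysome RNA. Only AT1G51200, a zinc-finger protein with an A20/AN1 domain, had higher polysome RNA, by 0.58.

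Mitochondrial respiration was represented by 3 members with small changes of both kinds. AT2G01090, the hinge subunit of the cytochrome bc1 complex, had 0.47 in polysome RNA and -0.66 in steady-state RNA. AT4G37830, a cytochrome c oxidase subunit, had 0.43 and -0.41, and AT4G29480, subunit g of ATP synthase, 0.58 and -0.22.

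In the remaining small groups the peptides and chaperones mostly had higher polysome RNA. RALFL32, a RALF-like peptide, was higher by 1.37 in polysome RNA with 0.05 in steady-state RNA, while the calcium-binding EF-hand protein AT2G46600 was lower by 1.01 in steady-state RNA. The DnaJ-domain proteins AT3G62190 and AT1G56300 were higher by 1.59 and 0.88 in polysome RNA, and the cyclophilin AT2G36130 combined 0.63 with -0.63. Among metabolic genes AT4G26860, a pyridoxal phosphate-binding protein, and the glycosyltransferase UGT87A2 were higher by 1.83 and 1.15 in polysome RNA. CYN, the cyanase, and AT5G47435, a formyltetrahydrofolate deformylase, were lower by 1.35 and 0.63 in steady-state RNA. Of 4 nuclear proteins, the nucleoporin AT3G16310 and the histone chaperone ASF1B had higher polysome RNA, by 0.79 and 0.90. The gamma subunit of TFIIA, AT4G24440, and the WD40 protein AT5G66240 had lower steady-state RNA, by 0.77 and 0.55. PLIM2b, an actin-binding LIM protein, had lower steady-state RNA by 0.90.

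**Figure D3:**
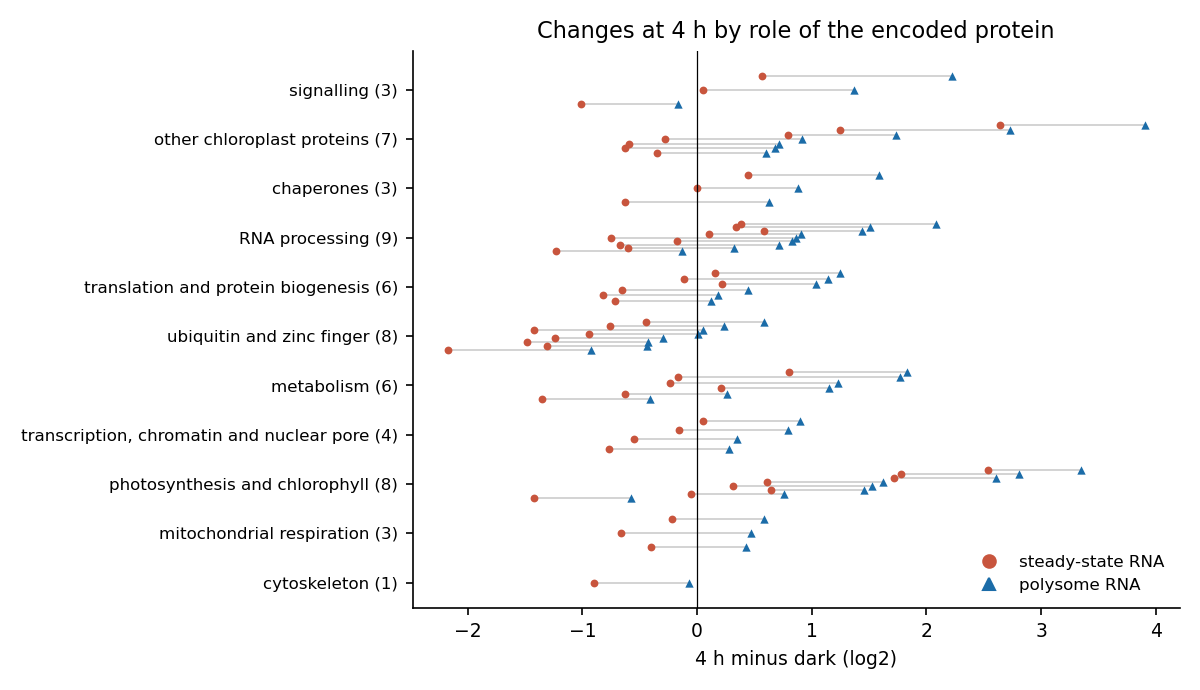
Change from darkness to 4 h (horizontal, log2) in steady-state RNA, circles, and polysome RNA, triangles, for the 58 members whose role is given, 1 line a gene, grouped by role with the number of genes in brackets. In the photosynthesis group 7 of 8 triangles lie to the right of 0.5, and in the ubiquitin and zinc-finger group all 8 circles lie to the left of 0.

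For 84 members no role is given, 38 with higher polysome RNA, 38 with lower steady-state RNA, 6 combined and 2 in neither class. The largest changes in both kinds of RNA were those of AT1G18060, higher by 3.65 in polysome RNA and 2.74 in steady-state RNA, AT4G16410, higher by 2.89 and 2.09, AT2G33250, higher by 2.85 and 1.83, and AT5G20220, higher by 2.81 and 1.86. AT1G13670, AT2G17240, AT5G10690, AT5G16030, AT5G17670, AT1G45230 and AT2G21960 followed, with polysome changes between 2.14 and 2.64 and steady-state changes between 0.94 and 1.81. AT3G02690, AT3G24506, AT1G76405 and AT5G20130 were higher by 1.58 to 1.76 in polysome RNA and by 0.62 to 0.86 in steady-state RNA. With AT2G29180 these are the genes of this class whose steady-state RNA was also higher by 0.5 or more.

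Polysome RNA was higher with steady-state RNA within 0.5 of its dark level in AT3G05810, AT5G52960, AT3G47295, AT1G28150, AT1G78020, AT3G51510, AT2G20725, AT5G55640, AGL26, AT4G08280, AT3G14595, AT5G47830, AT3G45740, AT4G18400, AT1G58150, AT3G06610, AT1G10660, AT5G58110, AT3G24570, AT3G15900, AT3G51500 and AT3G13845. Their polysome changes lay between 0.52 and 1.85. AGL26, a name taken from the annotation, was the 1 member with another probe set of its own, whose 18 signals lay between 0.7 and 27.3 and whose gain was -2.02, and which did not meet the level conditions. AT3G51500 and AT3G51510 were the only members that are neighbours in the reference gene table, with gains of 0.94 and 1.04.

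Both kinds of RNA were lower by 0.5 or more in AT1G73120, AT2G27830, AT5G06370, AT1G15350, AT1G72060, AT1G56090, AT2G25910, AT3G25910 and AT1G09280, with steady-state changes between -2.77 and -1.37 and polysome changes between -1.38 and -0.54. Only steady-state RNA was lower by 0.5 or more in AT2G26210, AT3G11600, AT3G62650, AT4G14385, AT5G56100, AT4G32340, AT3G60300, AT5G04910, AT4G09830, AT1G21770, AT4G14615, AT1G71730, AT4G08330, AT5G01350, AT5G02440, AT3G47610, AT2G19790, AT5G66490, AT5G64180, AT1G30880, FYD, AT1G54680, AT1G33290, AT1G73470, AT5G62900, AT2G21195, AT5G14410, AT5G59140 and AT3G59800. These 29 genes had steady-state changes between -1.62 and -0.51 and polysome changes between -0.44 and 0.42. Polysome RNA was thus lower too in some of them, such as AT3G62650 at -0.44 and AT3G60300 at -0.43. AT4G38490, AT5G05710, AT5G64130, AT5G27400, AT4G13200 and AT5G53650 combined polysome changes of 0.50 to 1.01 with steady-state changes of -0.98 to -0.56. AT3G57320 and AT5G46020 stayed under 0.5 on either side, at 0.41 and -0.48 and at 0.40 and -0.42.

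Gene groups named by keyword in the reference gene symbols gave few members. Of 5 photosystem, cytochrome and antenna genes among the 4674 probe sets, 1 was a member, LHCB4.2, and the median gain of the 5 was 0.13. None of 4 genes of chlorophyll synthesis, 3 of the Calvin cycle, 12 of plastid import, redox and chaperones, 3 of mitochondrial respiration, 21 of the proteasome and ubiquitin, 4 of histones, 8 of the cytoskeleton or 17 of the cell wall was a member. The median gains of these lists lay between -0.36 and 0.34, beside -0.06 over the 4674 probe sets. A list of translation factors matched no gene. The lists hold only genes whose symbol carries the keyword, and 14 of the 142 members have a symbol other than their locus. They also lack the 3 genes left out by name, which met the thresholds of the rule. CHLM, 1 of these 3, acts in chlorophyll synthesis and is not among the 4 genes of that list.

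The 0.5 h arrays, which took no part in the choice, showed the members still low in polysomes. Their median ratio was -0.44 on the log2 scale, against 0.04 over the 4674 probe sets, and 124 of the 142 (87.3%) had a ratio below 0, against 45.9% of the 4674. By limma's moderated test, with Benjamini-Hochberg adjustment over 15922 probe sets, 34 members (23.9%) were lower in polysome than in steady-state RNA, against 4.28% of all probe sets tested and 5.09% of the 4674 probe sets. In the other direction 1 member (0.704%) was higher, against 4.04% of all probe sets tested and 6.29% of the 4674. The ratios of 107 members did not pass the test. With the replicate number as a block, 61 members were lower and 3 higher, against 9.13% and 9.36% of all tested, and all 35 earlier calls held. All 3 polysome signals lay below all 3 steady-state signals in 53 members (37.3%), against 12.5% of all probe sets tested and 12.7% of the 4674.

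Replicate 1 of steady-state RNA moved with this result. At 0.5 h it gave the lowest of the 3 steady-state signals in 106 members (74.6%), against 42.9% of the 4674 probe sets. The share was 64.1% against 37.8% in darkness and 52.1% against 35.0% at 4 h, so replicate 1 was the low steady-state array of the members in all 3 light conditions. Without replicate 1 of steady-state RNA at 0.5 h 58 members were called lower, 40.8% of the set against 6.10% of all tested. Without replicate 2 or replicate 3 of the same group, 22 members were called lower in each case, 15.5% of the set against 2.20% and 2.30% of all tested. Median ratios of the members at 0.5 h within replicate numbers 1, 2 and 3 were -0.21, -0.48 and -0.68. The replicate numbers also tie these arrays to the dark and 4 h arrays that made the choice, and the part of that tie in the 0.5 h result was not tested.

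**Figure D4:**
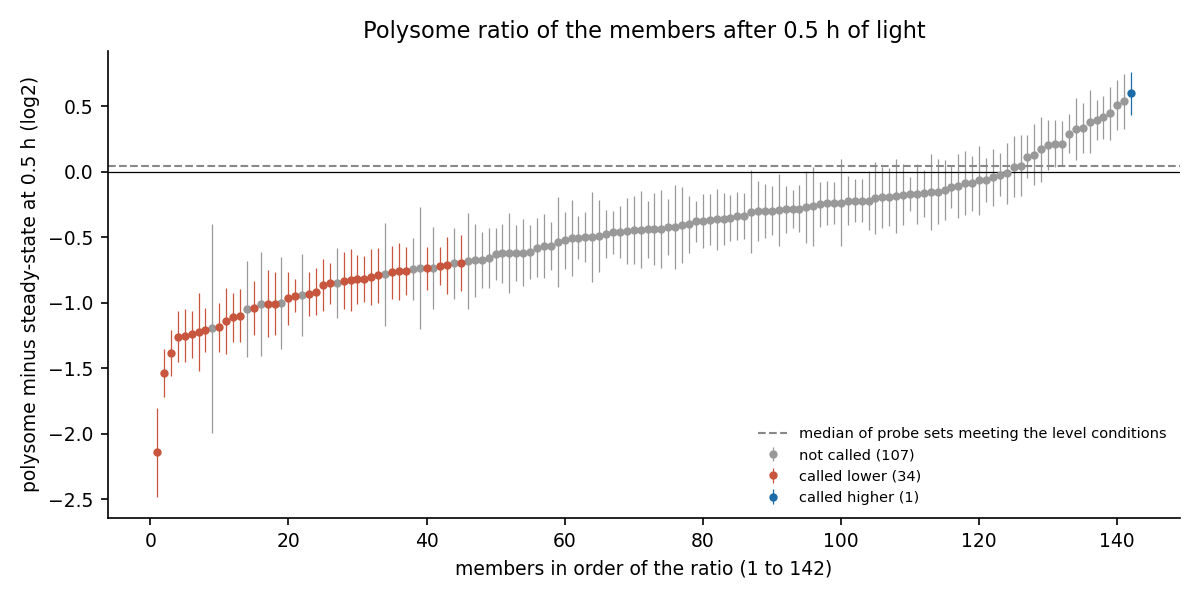
Polysome minus steady-state RNA at 0.5 h of light (vertical, log2) for the 142 members in order of the ratio, with standard errors from limma. The 34 members called lower and the 1 called higher are coloured, and 124 of the 142 lie below 0, while the median of the 4674 probe sets, dashed, is 0.04.

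Of the 35 calls at 0.5 h, 19 held when each of the 6 arrays was left out in turn, and 14 of these held under all 14 alternatives run on the test. The other 5, AT1G15350, AT2G39000, AGL26, AT1G10660 and AT5G01350, missed the threshold when the fit held only those 6 arrays, with adjusted p of 0.0505, 0.0543, 0.057, 0.0575 and 0.0648 by limma. AT5G01350 also missed it with each array's median set to a common value, at 0.0561. AT1G58150 had the lowest ratio, -2.14 ± 0.338 (SE, adjusted p = 0.000666 by limma), with steady-state signals of 268, 391 and 553 and polysome signals of 71.1, 111 and 85.8. Its ratio was lower at 0.5 h than in darkness, where it was -1.13. AT5G47435, the deformylase, followed at -1.54 ± 0.184 (SE, adjusted p = 7.02e-05 by limma), with 1389.9, 1781 and 1726 in steady-state RNA and 609, 579 and 495 in polysome RNA. It had the lowest ratio of all members at 4 h, -0.60. AT3G14595 had a ratio of -1.38, with 2877, 4487 and 4557 against 1289.7, 1784 and 1440.2. LIL3:2 had 8252, 9944 and 9869 in steady-state RNA and 3489, 4476 and 4219 in polysome RNA, a ratio of -1.21 ± 0.168 (SE, adjusted p = 0.000223 by limma). In these 4 genes no polysome value reached a steady-state value.

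The RING protein AT4G26400 had steady-state signals of 1892, 2750.3 and 2558 and polysome signals of 1122, 1188 and 729.7, a ratio of -1.26. AT1G30880 had 2051, 2496 and 2590.1 against 1013, 943 and 1033, and a ratio of -1.25. AT3G60300 had 1379, 1966 and 1833 against 649, 857 and 679, and a ratio of -1.24. All of these values were apart between the kinds of RNA, and all 3 genes had lower steady-state RNA at 4 h. AT3G62190, with a DnaJ domain, had 513, 558 and 614 against 209.6, 246 and 289. AT5G27400 had 587, 803 and 926 against 296, 395 and 371. LSM3B, whose dark ratio was -1.45, had 885, 935 and 1144 against 524, 499 and 369. Their ratios were -1.19, -1.11 and -1.10, with adjusted p of 0.00064, 0.00116 and 0.00261 by limma, and their groups did not overlap.

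The peptide gene RALFL32 had steady-state signals of 2869.7, 3868 and 3971 and polysome signals of 2186, 1672 and 1384, a ratio of -1.04. AT2G39000, the chloroplast acetyltransferase, had 802, 734 and 1206 against 463, 409 and 504. AT1G51200, the zinc-finger protein, had 9512, 9058 and 8572 against 4926, 4380.3 and 4799.9, and its standard error of 0.128 was the smallest of the 35. The groups were apart in all 3 genes. AT5G58110 had 1534, 1785 and 1918 against 1073, 817 and 859. AT1G10660 had 812, 925 and 782 against 393, 589.9 and 378. AT4G08280 had 633, 578 and 638 against 354, 334 and 335. Their ratios of -0.93, -0.91 and -0.85 again rested on groups without overlap. AGL26 had 669, 793 and 797 against 434, 482 and 367. AT5G01350 had 2173, 2711 and 2874 against 1682, 1603 and 1359.5. AT1G15350 had 2179, 2036 and 2246 against 1296, 1372 and 1256. These 3 had the ratios nearest to 0 of the 19, -0.82, -0.74 and -0.72, and their groups were apart as well.

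The other 16 calls ended without 1 or more of the arrays, left out singly. Those fits had no replicate block, with which all 35 calls held on the full set of arrays. Leaving arrays out was not run with the block. AT5G17670 had steady-state signals of 211, 429.7 and 424 and polysome signals of 153, 136 and 145. Its ratio of -1.22 gave an adjusted p of 0.0144 by limma, and of 0.0811, 0.0776 and 0.0593 without steady-state replicate 2, steady-state replicate 3 or polysome replicate 2. AT5G56100 had 2562, 5609.6 and 5137 against 1812, 2384 and 1609.8, and its adjusted p by limma went from 0.00877 to 0.0599 without steady-state replicate 2. In both genes steady-state replicate 1 was the lowest of its group, and the groups did not overlap. AT2G26210 had 736, 984 and 1074 against 508, 492 and 382, and lost its call without any one of steady-state replicates 2 and 3 and polysome replicates 2 and 3, with adjusted p up to 0.0881. AT5G52960 had 836, 1042 and 1624 against 603, 536 and 540.4, and lost it without steady-state replicate 3 (0.0894) or polysome replicate 2 (0.0572). AT1G45230 had 442, 654 and 698 against 361, 277 and 336, and reached at most 0.0661, without polysome replicate 2. These 3 genes had groups without overlap and ratios of -1.01, -1.01 and -0.86.

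AT2G29180 had steady-state signals of 599.6, 981 and 1124 and polysome signals of 516, 557 and 408, with an adjusted p of 0.118 by limma without steady-state replicate 3. AT5G05710 had 876, 1574 and 1772 against 722, 799 and 797, with 0.132 without the same array. AT2G36930 had 2064, 3127 and 2375 against 1669, 1622 and 1172, with 0.0978 without steady-state replicate 2. All 3 were among the 12 largest gains, their groups were apart, and their ratios were -0.83, -0.80 and -0.76. The WD40 protein AT5G66240 had 1704, 1443 and 1427 against 832, 717 and 1064, and lost its call without polysome replicate 2, at 0.0672, but not without any other single array. CYN had 2458, 5181 and 5262 against 2257, 2082 and 2557, and its adjusted p reached 0.163 by limma without steady-state replicate 3. Its groups overlapped, since steady-state replicate 1 was below polysome replicate 3.

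AT4G16410 had steady-state signals of 1136, 1756 and 2003 and polysome signals of 854, 902 and 999.8, with an adjusted p of up to 0.134 by limma, without steady-state replicate 3. AT1G21770 had 2532, 3369 and 4126 against 1949.7, 2149.9 and 1704, with up to 0.123 without that array. AT5G64180 had 718, 913 and 1206 against 595, 569 and 479.7, with up to 0.17 without that array. Groups were apart in these 3 genes, with ratios of -0.79, -0.77 and -0.76. AT2G27830 had 2228, 2838 and 3403 against 1303, 2339 and 1602, with overlap and an adjusted p of 0.205 by limma without polysome replicate 1. AT5G62900 had 495, 315 and 358 against 254, 253 and 205, and lost its call whichever of the 6 arrays was left out, with adjusted p between 0.053 and 0.152. AT4G29480, subunit g of ATP synthase, was the one member called higher, with 1276, 1377 and 1542 in steady-state RNA and 2339.7, 2120.0 and 1893 in polysome RNA. Its groups were apart, its ratio was 0.60 ± 0.163 (SE, adjusted p = 0.0278 by limma), and the call ended without steady-state replicates 1 or 2 or polysome replicates 1 or 2, at up to 0.108.

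Between darkness and 4 h, the 0.5 h ratios lay mostly near the dark ones. The ratio at 0.5 h lay between those of darkness and 4 h in 128 members, below the dark ratio in 13 and above the 4 h ratio in 1, AT4G08330, at 0.45 against -0.41 in darkness and 0.40 at 4 h. It was nearer to the dark ratio in 127 of 142. These comparisons share the dark and 4 h arrays with the choice of the members and are given side by side without a test. From darkness to 0.5 h the members' median change was 0.30 in polysome RNA and 0.06 in steady-state RNA, against 0.01 in each over the 4674 probe sets. The median gain of ratio at 0.5 h was 0.25, and the largest were 0.98 in AT1G53120, 0.86 in AT4G08330, 0.81 in AT3G45740 and 0.81 in AT3G51510. AT1G58150 stood apart in the other direction at -1.01.

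The median ratios of the 2 main classes lay close together at each time. The class with higher polysome RNA had median ratios of -0.76 in darkness, -0.44 at 0.5 h and 0.34 at 4 h. The class with lower steady-state RNA had -0.72, -0.43 and 0.38. At 0.5 h the calls lower in polysome RNA numbered 14 of 70 in the first, 16 of 58 in the second and 4 of 11 in the combined class. The share was 4.28% of all probe sets tested and 5.09% of the 4674. A difference between the classes was not tested.

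**Figure D5:**
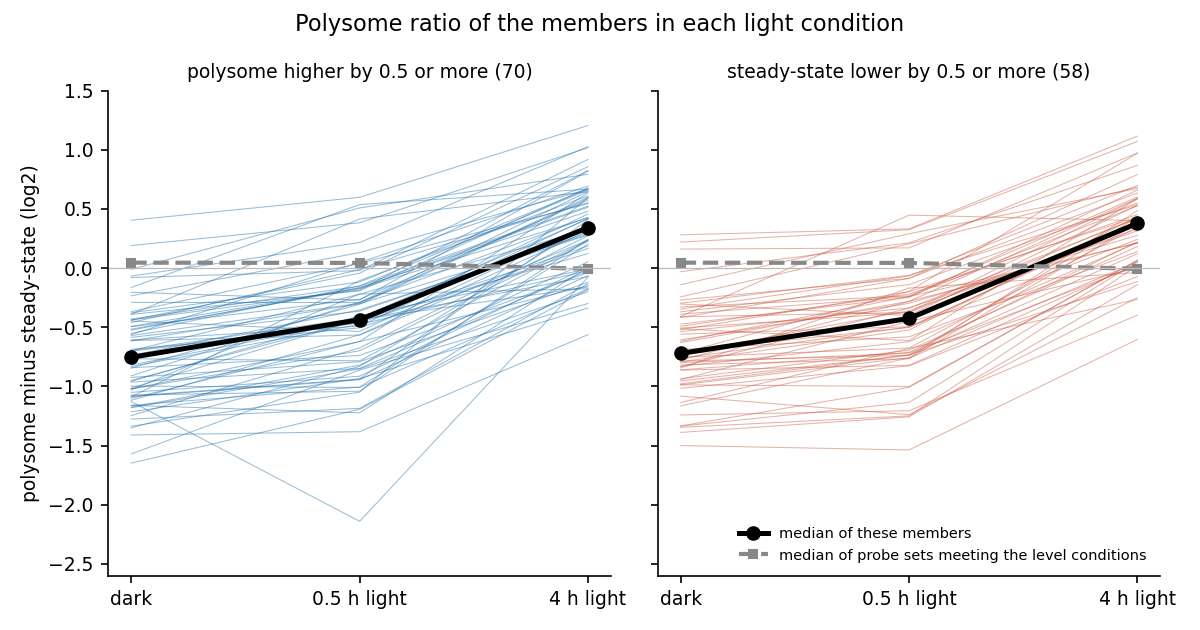
Polysome minus steady-state RNA (vertical, log2) in darkness, 0.5 h and 4 h of light for each of the 70 members with higher polysome RNA, left, and the 58 with lower steady-state RNA, right, 1 thin line a gene. The thick line is the median of the class, -0.76 and -0.72 in darkness and 0.34 and 0.38 at 4 h, and the dashed line is the median of the 4674 probe sets.

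The members with a ratio above 0 already in darkness were AT4G29480 at 0.40, AT1G48160 at 0.28, AT2G46600 at 0.22, AT3G13845 at 0.19, AT5G66490 at 0.16 and AT5G46020 at 0.04. At 4 h these 6 had ratios between 0.86 and 1.20. At the other end, AT5G47435, AT3G14595 and LIL3:2 had 4 h ratios of -0.60, -0.56 and -0.40, still below 0 after a gain of 0.84 to 0.90. The members lie on all 5 chromosomes, with 34, 20, 30, 22 and 36 on chromosomes 1 to 5.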

How the data were processed

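Signals were measured on 18 Affymetrix arrays. The values the authors deposited are array signal intensities on a linear scale, and MAS5 is named for them in the submitters' processing notes. Its version was not given in the sources used here, and detection calls were not used. From these values, 64 of 22810 probe sets were left out as controls, 915 signals below a floor of 1 were set to 1, and values were put on the log2 scale. Probe sets at or above the 30th percentile of mean log2 signal, 15922, were tested, and all 142 members were among them.

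Genes were named by the annotation of the array, with symbols updated from a reference table. Of 166 genes that met the thresholds, 21 were left out for ribosomal proteins (18 cytosolic, 2 plastid, 1 mitochondrial, from general knowledge) and 3 as named in the report. AT1G25260 and AT3G14595 carry family names of ribosomal proteins and were kept.

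Tests used limma 3.58.1 under R 4.3.3, fitted on all arrays with a mean per group and with variances moderated along an intensity trend, and calls needed a p under 0.05 after Benjamini-Hochberg adjustment. It was tested on simulated data. Standard errors are from that fit, which did not use the replicate numbers, so they include differences shared by same-numbered samples. Same-numbered samples deviated together (correlations of 0.108 to 0.419 over 5 pairs of groups, at most 0.0359 for different numbers), so the numbers pair the samples, and the replicate block is given beside results it changes. The labels call the replicates biological but do not say which material they shared.

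Every member is named. The 12 of largest gain and those called at 0.5 h are given in every array of the groups described. The alternatives were array scaling, an added constant of 32, filters, the variance trend, the arrays fitted, each array left out, the block and the thresholds of the rule. The members, role groups and lists were chosen with earlier results of these data known. Protein length and promoter motifs were not analysed here.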

Additional observations from a re-analysis of the deposited data

How the results depend on the processing

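At 0.5 h, 1325 probe sets were called in polysome against steady-state RNA. They were 2944 with the replicate block (1491 higher, 1453 lower), 875 with each array's median set to a common value, 384 with only the 6 arrays compared (126 higher, 258 lower, against 644 and 681), and 570 to 2123 with 1 array left out, 570 being without polysome replicate 2 and 2123 without steady-state replicate 1. The members called, 35, were 64 with the replicate block, 15 with only the arrays compared, and 22 to 58 with 1 array left out, 58 being without steady-state replicate 1 and 22 and 23 without steady-state replicates 2 and 3. In each of these settings the share of members called lower exceeded that of all tested, the smallest difference being 10.6% against 1.62%, and the member called higher lost its call in 6. Of 490 repeats of the 35 calls, 396 held, 94 missed the threshold and none changed sign. The change of ratio at 4 h, 58 calls, gave 300 with the replicate block, 13 without the variance trend, and 12 to 73 with 1 array left out, 12 being without dark steady-state replicate 3. Polysome RNA at 4 h against dark gave 4715 to 5103 calls with 1 array left out and steady-state RNA 4587 to 4974, against 5690 and 5421. The rule gave 221 genes with a common median, all 142 members among them, 290 at a gain of 0.6, 75 at 1.0, and 132 to 211 with 1 array left out. With a common median the gain's median over all tested was 0.02 in place of -0.10. Quantile normalization kept 134 members and the added constant 120. With classes cut at 0.3 the combined class held 29 members and the class of neither 0. The cause of these differences was not tested. The number of arrays limits the precision.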
